A study of Mus musculus with 29 samples.

Results

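The genes described here were the matrix metalloproteinases (MMP), the tissue inhibitors of metalloproteinases (TIMP), and the ADAM, ADAMTS and ADAMTS-like (ADAMTSL) genes of the mouse, followed in laser-captured alveolar septa from before birth to 4 weeks of age. Members were chosen by name: the protein-coding genes whose symbol was that of a numbered MMP, TIMP, ADAM, ADAMTS or ADAMTSL gene, which gave 84 of the 22779 gene IDs in the table, with 23 MMP, 4 TIMP, 33 ADAM, 19 ADAMTS and 5 ADAMTSL genes. Of these, 57 passed the filter used for testing, which asked for 4 or more libraries with an FPKM of 1 or higher, with 14 MMP, all 4 TIMP, 17 ADAM, 17 ADAMTS and all 5 ADAMTSL genes. FPKM counts sequenced fragments scaled by transcript length and by the mapped fragments of the library, so levels of different genes can be set side by side.

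All animals were wild type C57BL/6 mice, with no treatment or deletion in any group, and each library was labelled with 1 pup or embryo. The series held 29 libraries at 15 ages, 2 at each age except P28, which had 1. Since nothing was stated on litters, the p-values measure the spread between these animals. In the stage comparisons that spread also holds differences between the ages pooled in a group. The ages were E16.5 and E18.5 (prenatal, 4 libraries), P0.5 to P2.5 (postnatal saccular, 4 ages, 8 libraries), P4, P5, P7 and P10 (early alveolar, 8 libraries), and P13.5, P15, P19, P23 and P28 (late alveolar, 9 libraries), E counting days of gestation and P days after birth. The capture was cut to leave out large vessels and bronchi, and the tissue left within the cut was still a mixture of cell types, in which fewer cells of a type and less RNA per cell cannot be told apart.

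MMP enzymes are zinc-dependent proteinases that cut collagens, elastin, basement membrane and other matrix proteins, and most are made as inactive proenzymes that another proteinase must cleave. TIMP proteins block them by binding at the active site, and TIMP3, which stays bound to the matrix, also inhibits ADAM17 and several ADAMTS enzymes. ADAM proteins are membrane-bound and release growth factors, cytokines and receptors from the cell surface, ADAMTS proteins are secreted and process proteoglycans, procollagens and microfibrils, and ADAMTSL proteins resemble the latter but have no catalytic domain. In the lung, matrix turnover by these enzymes accompanies the thinning of septa and the outgrowth of secondary septa that divide the saccules into alveoli.

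Depth cannot be read from FPKM, and the number of mapped reads per library was not used here. The summed FPKM of a library was 318176 to 457706, and 10114 to 13059 genes had an FPKM of at least 1. Surfactant and other alveolar epithelial markers were present in every library, with a summed FPKM of 2181 to 23145 over 7 genes. Genes of the conducting airway were present too, at 185 to 5734 over 6 genes, and heart muscle genes summed to 1137 and 2254 at E16.5 against at most 542 in any other library. The libraries P10a, P19d and P19f listed 416, 577 and 242 of 8621 well-expressed coding genes at exactly 0, so a 0 there is given only as listed.

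**Figure D1:**
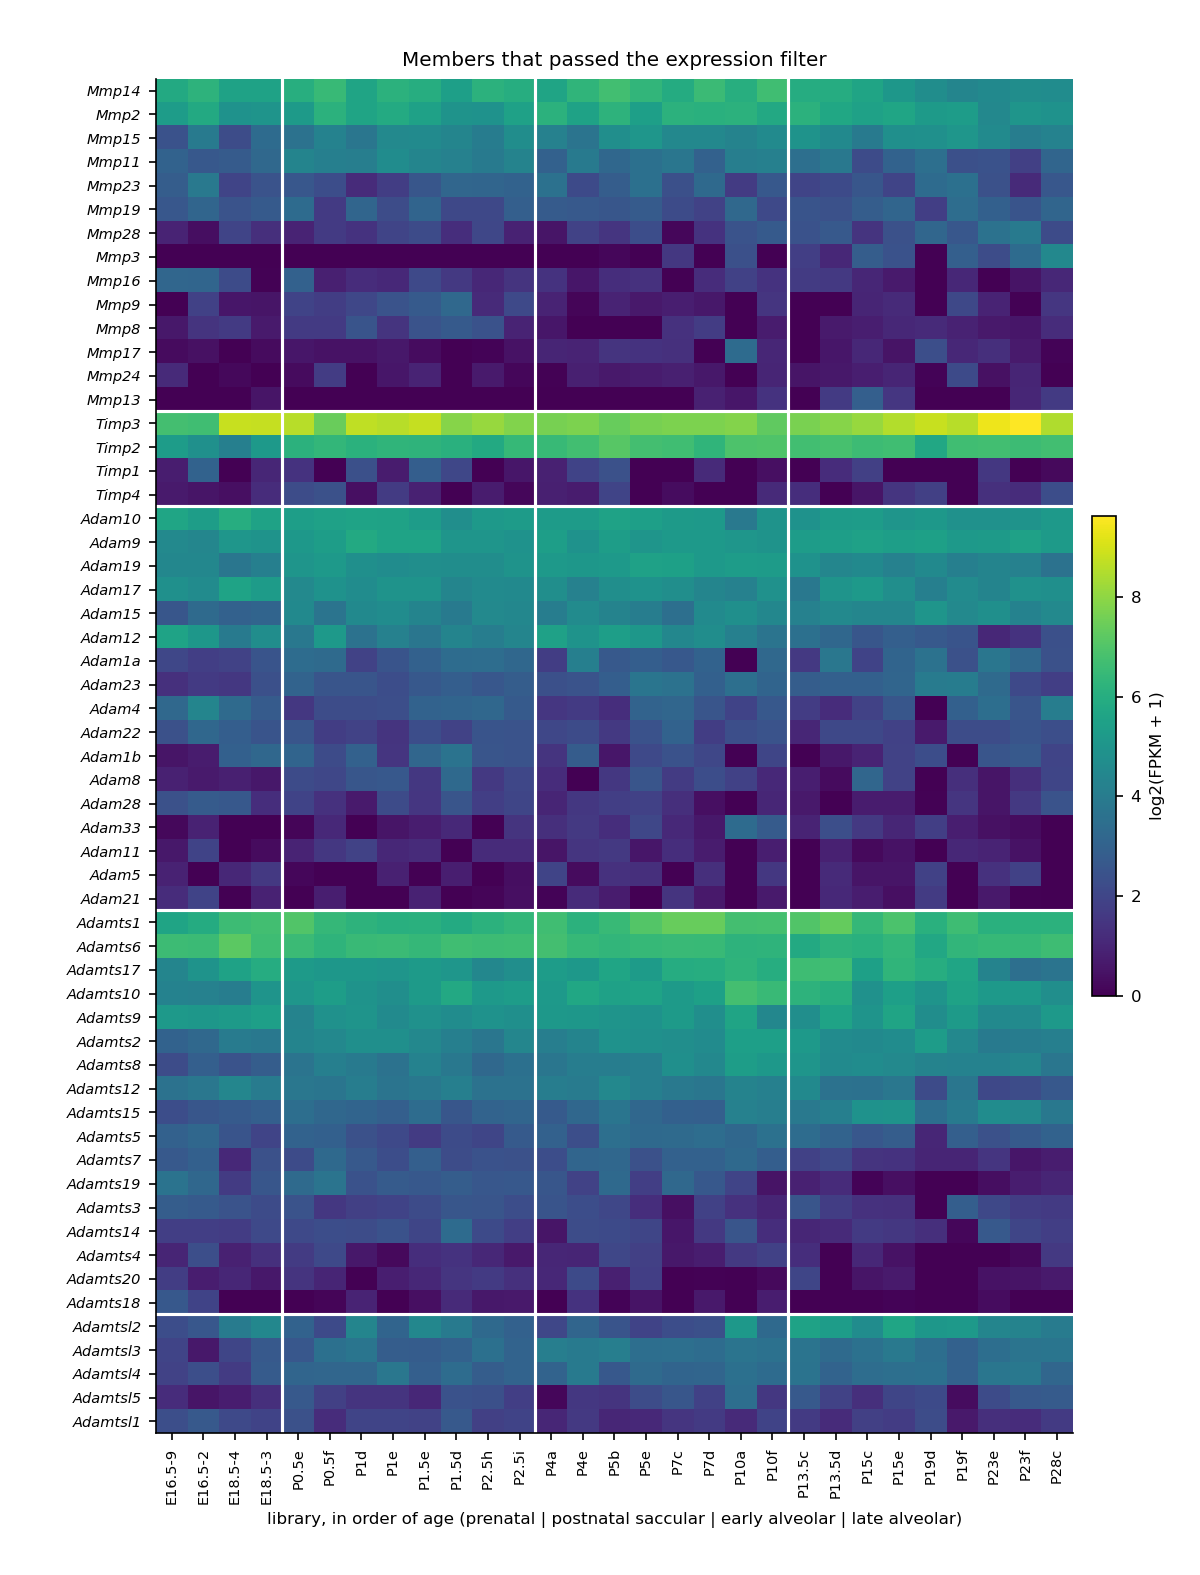
Heat map of log2(FPKM + 1) of the 57 members that passed the filter (rows, by family and within a family by mean level) in the 29 libraries (columns, in order of age). White lines part the families and the 4 stage groups. Timp3 has the highest values of all rows, and the lower rows of each family are near 0 in many libraries.

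A few members held most of the signal of each family. Over all libraries, Mmp14 and Mmp2 made up 35.9% and 29.6% of the summed mean FPKM of the MMP genes, Timp3 and Timp2 78.0% and 21.3% of that of the TIMP genes, and Adam10, Adam9, Adam19 and Adam17 18.8%, 18.2%, 13.5% and 12.9% of that of the ADAM genes. Adamts1 and Adamts6 led the ADAMTS genes with 24.3% and 22.5%, and Adamtsl2 the ADAMTSL genes with 41.8%. The range of the family sums over libraries was 101 to 230 FPKM for MMP, 136 to 880 for TIMP, 152 to 242 for ADAM, 285 to 556 for ADAMTS and 14.9 to 79.5 for ADAMTSL genes.

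The 27 members that did not pass the filter were 9 MMP, 16 ADAM and 2 ADAMTS genes. Of these, 11 were listed at 0 in all 29 libraries, namely Mmp1a, Mmp1b, Mmp7, Mmp10, Mmp20, Mmp21, Adam2, Adam6a, Adam24, Adam26a and Adam29. A further 11 reached an FPKM of 1 in at least 1 library: Mmp12 in 3 libraries, and Mmp25, Mmp27, Adam3, Adam6b, Adam7, Adam18, Adam25, Adam30, Adam32 and Adamts16 in 1 library each. Many of the ADAM genes of this group are known from testis, where they serve sperm maturation. The highest value in the group was 5.07 FPKM, for Adam3.

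Part of this list lies together in the genome. The cluster on chromosome 9 (7272514 to 7699585, GRCm38) holds 10 MMP genes, and 5 of them were listed at 0 in every library, while only Mmp3, Mmp8 and Mmp13 passed the filter. On chromosome 8, 3 clusters hold 12 ADAM genes, of which 2 passed: Adam5 and Adam9, the latter with 18.2% of the summed mean FPKM of the ADAM genes. Outside the chromosome 9 cluster, the MMP genes with the highest means, Mmp2, Mmp14, Mmp15 and Mmp11, were expressed in all 29 libraries. Mmp21, also outside it, was listed at 0 in all of them, and Mmp25 did not pass the filter.

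The promoters of that cluster differed in letters from those of the other members, which is why 4 are shown. RefSeq promoter sequences (GRCm38.p6) were matched for 53 of the 84 members, and the 250 bases before the start were searched on both strands. Members were counted as genes, by a match in any promoter listed for them, and the 32851 mouse promoters singly. The AP-1 type motif TGANTCA was present in 8 of the 10 cluster members, 4 of the 43 other members and 6.75% of the 32851 promoters. The TATA box motif TATAAA was in 7 of 10, 6 of 43 and 12.4%. GC box letters GGGCGG were in none of the 10, in 24 of 43 and in 32.7%. Below are Mmp3 (chr9:7445572-7445821, plus strand), the cluster member with the highest level late in the series, Mmp13 (chr9:7272264-7272513, plus strand), Mmp10 (chr9:7502092-7502341, plus strand), listed at 0 in every library, and Mmp14 (chr14:54431348-54431597, plus strand), the MMP gene with the highest mean. Capitals mark TGANTCA and TATAAA in Mmp3, Mmp13 and Mmp10 and GGGCGG in Mmp14, and different motifs do not overlap in these sequences.
Mmp3: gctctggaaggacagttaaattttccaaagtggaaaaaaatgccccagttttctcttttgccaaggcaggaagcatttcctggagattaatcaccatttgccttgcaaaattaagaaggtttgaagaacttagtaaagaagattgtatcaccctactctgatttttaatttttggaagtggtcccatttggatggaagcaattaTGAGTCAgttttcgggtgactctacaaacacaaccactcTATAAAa
Mmp13: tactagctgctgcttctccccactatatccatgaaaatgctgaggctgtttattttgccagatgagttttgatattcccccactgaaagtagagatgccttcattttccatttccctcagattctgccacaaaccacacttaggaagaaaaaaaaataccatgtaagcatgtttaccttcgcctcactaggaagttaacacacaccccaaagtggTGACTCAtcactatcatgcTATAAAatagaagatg
Mmp10: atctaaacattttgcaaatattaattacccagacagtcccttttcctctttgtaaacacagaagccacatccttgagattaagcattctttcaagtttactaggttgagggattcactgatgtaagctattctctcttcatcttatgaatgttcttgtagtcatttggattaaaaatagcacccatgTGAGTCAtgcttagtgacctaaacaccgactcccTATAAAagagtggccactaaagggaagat
Mmp14: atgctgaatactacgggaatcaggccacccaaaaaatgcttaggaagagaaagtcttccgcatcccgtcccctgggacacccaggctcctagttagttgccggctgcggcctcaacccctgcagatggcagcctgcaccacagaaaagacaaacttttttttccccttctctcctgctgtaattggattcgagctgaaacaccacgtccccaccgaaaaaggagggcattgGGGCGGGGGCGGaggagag
The first base of TGANTCA lay 46, 35 and 63 bases before the start in Mmp3, Mmp13 and Mmp10, and that of TATAAA 7, 16 and 29 bases before it. Both motifs were thus present in Mmp10, listed at 0 throughout, as well as in Mmp3 and Mmp13. Mmp8, the remaining cluster member that passed the filter, had neither of them. A match describes the letters of the window and is not a binding site.

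Stage comparisons used limma on log2(FPKM + 1), fitted to all 14616 genes that passed the filter, with p-values adjusted by Benjamini-Hochberg over all of them and a threshold of 0.05. Each difference below is a difference in log2(FPKM + 1) with its standard error (SE), which understates the change of low genes.

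Birth was the step with the most changes in one direction. In postnatal saccular against prenatal septa, 13 of 57 members (22.8%) rose and 0 fell, where 9.11% of all tested genes rose and 6.81% fell. The risers were 3 MMP (Mmp9, Mmp11 and Mmp15), 1 TIMP (Timp2), 4 ADAM (Adam8, Adam9, Adam15 and Adam19), 3 ADAMTS (Adamts2, Adamts8 and Adamts10) and 2 ADAMTSL genes (Adamtsl3 and Adamtsl4). The median difference over the members was 0.20, against -0.00 over all genes. At an unadjusted p under 0.05, limma gave 15 members higher (26.3%, against 14.9% of all genes) and 2 lower (Adam21 and Adamts9, 3.51% against 14.0%), and the number called lower in the other fits was 0 or 1. When the prenatal group was E18.5 only, 5 members were called: Adam15, Adam19, Adamts8, Mmp15 and Timp2.

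Markers of other cell types moved in the same comparison. Of 5 endothelial markers 4 rose. Their sum was 266 and 335 FPKM at E16.5, 644 and 557 at E18.5 and 610 to 991 in saccular septa. Of 7 alveolar epithelial markers 5 rose, among them Aqp5 and Ager of type 1 cells. The sum of the 7 was 5368 and 2181 FPKM at E16.5, 13752 and 16949 at E18.5 and 8935 to 22386 in saccular septa. Most of this sum was Sftpc, with a mean of 8878 FPKM before birth and 13884 in saccular septa. No marker of either list was at 0 throughout a group. Their part in the rise of the 13 members was not tested.

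Timp2, which besides inhibiting MMP enzymes joins MMP14 in activating pro-MMP2, had 38.4 and 27.7 FPKM in the E16.5 libraries and 17.0 and 36.3 at E18.5. In the 8 saccular libraries it ran from 56.1 through a median of 73.4 to 86.3, so the groups did not overlap. The difference was 1.32 ± 0.19 (SE), adjusted p = 1.98e-05. Its medians in early and late alveolar septa were 104 and 101. Timp2 shares its strand with part of Cep295nl, so some of its reads could not be assigned with certainty.

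Among the membrane proteinases of the ADAM family, Adam15 (metargidin) stood at 5.03 and 9.01 FPKM at E16.5 and 7.00 and 7.49 at E18.5. Saccular libraries held 11.9 to 24.4 with a median of 21.3, all above the prenatal ones, a difference of 1.34 ± 0.21 (SE), adjusted p = 6.83e-05. Adam19, one of the meltrins, went from 12.7 to 21.1 before birth to 24.7 to 36.2 after it without overlap (0.64 ± 0.17, adjusted p = 0.0104), and without the library E18.5-4 this was 0.49 with an adjusted p of 0.0700. Adam9, another sheddase, overlapped between the groups at 20.2 to 32.2 and 28.9 to 55.8 (0.57 ± 0.16, adjusted p = 0.0140). Without E16.5-9 or E16.5-2 it was 0.50 (adjusted p = 0.0726) and 0.46 (0.0841), against E18.5 alone 0.30 (0.427), and fitted to these 2 groups alone 0.57 (0.0628). For both ubiquitous sheddases, Adam10, which cuts Notch receptors, and Adam17, which releases TNF and ligands of the EGF receptor, the values did not pass: -0.31 (95% interval -0.73 to 0.12) and -0.39 (-0.82 to 0.04).

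The MMP genes that rose with birth were of different kinds. Mmp15, a membrane-type MMP, had 4.37, 14.6, 3.67 and 9.40 FPKM in the 4 prenatal libraries and 11.4 to 25.3 (median 18.8) in the saccular ones, with 1 prenatal library inside the saccular range (1.24 ± 0.28, adjusted p = 0.00248). Mmp11 (stromelysin-3), which is cleaved to its active form by furin inside the cell, rose from 5.20 to 8.42 to 14.3 to 24.3 without overlap (1.35 ± 0.30, adjusted p = 0.00257). Against E18.5 alone its difference was 1.26, adjusted p = 0.0595.

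Mmp9 (gelatinase B), Mmp8 (neutrophil collagenase) and Adam8 are genes of leukocytes and were low throughout. Mmp9 was listed at 0 and at 2.67, 0.503 and 0.453 FPKM before birth and ran from 1.22 to 8.56 (median 3.26) in saccular septa (1.43 ± 0.41, adjusted p = 0.0154), and without E16.5-9 the difference was 1.19, adjusted p = 0.0955. Adam8 stood at 0.555 to 0.852 before birth and 1.92 to 8.82 after it, without overlap (1.48 ± 0.46, adjusted p = 0.0269), and it did not pass without E16.5-9, E16.5-2, E18.5-4, E18.5-3 or P1.5d (1.33 to 1.52, adjusted p 0.0519 to 0.0696, by limma). With a pseudocount of 0.1 the differences were 2.69 for Mmp9 (adjusted p = 0.0673) and 2.25 for Adam8 (0.0978), and against E18.5 alone 1.62 (0.0550) and 1.51 (0.161). Mmp8 had 0.537 to 2.07 and 0.946 to 5.66, a difference of 0.89 ± 0.36 that did not pass, adjusted p = 0.0912.
Neutrophil markers moved in the same comparison: 7 of 8 tested markers rose at birth, and their summed level over 10 genes was 51.1 to 154 FPKM before birth and 229 to 617 in saccular septa, with Elane listed at 0 in all libraries of both groups. The part of these cells in the result was not tested.

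Secreted members rose as well. Adamts8, a proteoglycanase, had 3.65 to 6.49 FPKM before birth and 8.40 to 18.0 (median 12.7) after it without overlap (1.18 ± 0.25, adjusted p = 0.00166). Adamts2, which removes the N-terminal propeptide of fibrillar procollagens, went from 7.13 to 14.8 to 12.7 to 26.9 with overlap (0.88 ± 0.26, adjusted p = 0.0203), without E16.5-9 or E16.5-2 it was 0.71 (adjusted p = 0.116) and 0.79 (0.0785), and against E18.5 alone 0.50 (0.439). Adamts10, a partner of fibrillin microfibrils, gave 0.81 ± 0.28 (adjusted p = 0.0418), a call that was lost without E16.5-9, E16.5-2, E18.5-4, P0.5f, P1.5e, P1.5d, P2.5h or P2.5i (0.71 to 0.82, adjusted p 0.0538 to 0.129). It was also lost with no filter (adjusted p = 0.0514), with median ratio scaling (0.0596) and against E18.5 alone (0.67, 0.326).

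Of the ADAMTSL genes, Adamtsl4, a fibrillin-binding protein, had 2.198 to 5.74 FPKM before birth and 6.11 to 12.9 in saccular septa (1.03 ± 0.24, adjusted p = 0.00374), and against E18.5 alone the difference was 0.97, adjusted p = 0.0661. Adamtsl3 went from 0.519 to 5.37 to 5.17 to 12.3 (1.33 ± 0.27, adjusted p = 0.00118), on the line of its gene ID with the higher mean. The table holds a second Adamtsl3 line with a mean of 2.97 against 9.49 FPKM, on which the difference was -0.37, adjusted p = 0.677. With the lines summed it was 0.67 (adjusted p = 0.0976), and against E18.5 alone 0.80 (0.109).

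Because E16.5 and E18.5 lie apart in development and the E16.5 libraries held heart muscle genes, their values are given side by side for the members chosen for this after their values were seen. Timp3 stood at 105 and 101 FPKM at E16.5 and 443 and 436 at E18.5. Adamtsl2 stood at 3.89 and 5.15 against 15.1 and 21.0, and Adamts19 at 11.5 and 8.15 against 2.18 and 4.98. With 2 libraries at each age, this is a description without a test.

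**Figure D2:**
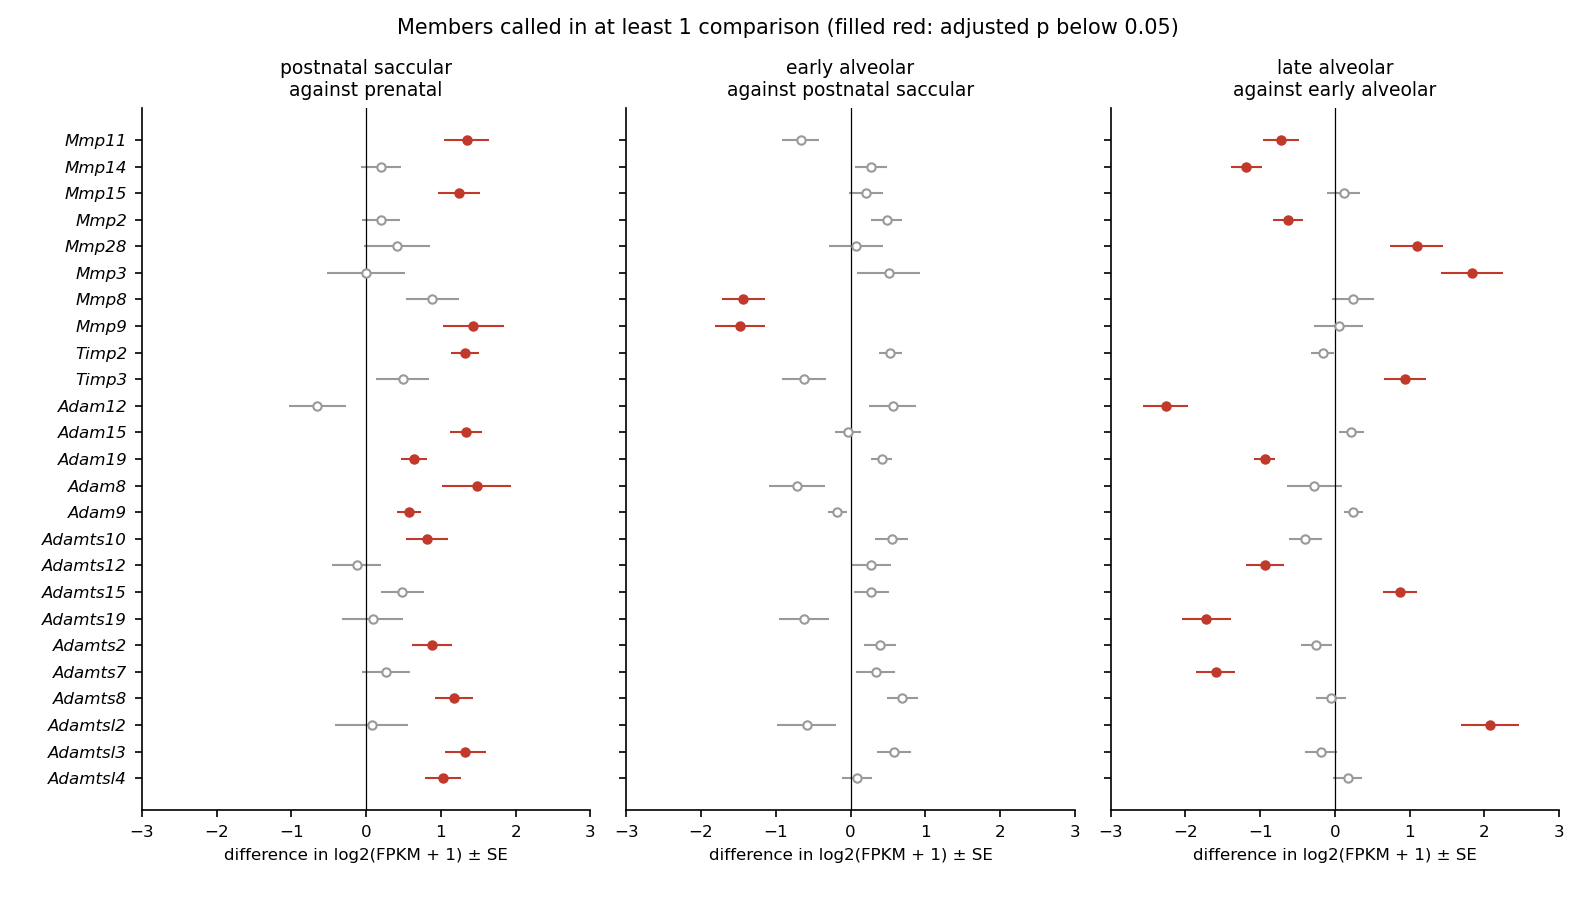
Differences in log2(FPKM + 1) with SE (x axis) of the 25 members called in at least 1 of the 3 stage comparisons (rows), 1 panel for each comparison. Red filled points passed the adjusted threshold: 13 to the right of 0 at birth, 2 to the left in early alveolar septa, and 5 right and 8 left in late alveolar septa.

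From postnatal saccular to early alveolar septa, 0 of 57 members rose and 2 fell (3.51%), where 0.527% of all tested genes rose and 0.937% fell. The 2 were Mmp8 and Mmp9. Mmp8 was listed at 0 in 4 of the 8 early alveolar libraries and reached 2.23 FPKM in the others, a difference of -1.43 ± 0.29 (adjusted p = 0.0117) from the 0.946 to 5.66 of saccular septa. Mmp9 had 0 to 1.80 FPKM, against 1.22 to 8.56 (-1.48 ± 0.33, adjusted p = 0.0202), and without the library P1.5e the difference was -1.41, adjusted p = 0.0519. With a pseudocount of 0.1 it was -2.59, adjusted p = 0.129. Of the 8 tested neutrophil markers, 3 fell in the same comparison and their sum was 55.9 to 363 FPKM in early alveolar septa, with Mpo and Elane listed at 0 in all 8 libraries. Their part in the result was not tested.

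The count of 0 risers changed with the model. In limma at an unadjusted p under 0.05, 11 members were higher (19.3%, against 5.72% of all genes) and 7 lower (12.3% against 7.42%). Other fits called 0 to 6 members higher. The fit of 15 separate ages called Adam19, Adam33, Adamts1, Adamts8, Adamts10 and Adamts17, and array weights Adam19, Adamts5, Adamts8 and Timp2. Besides Mmp8 and Mmp9, the fit of 15 ages also called Timp3 lower, and array weights called Mmp11 lower. Adamts8, at 12.7 to 39.6 FPKM (median 19.1) against 8.40 to 18.0, had a difference of 0.69 (95% interval 0.27 to 1.12), adjusted p = 0.0887. For Timp2 it was 0.53 (0.22 to 0.85), adjusted p = 0.0781, and for Adamts1, a proteoglycanase known as a cleaver of versican and aggrecan, 0.56 (0.14 to 0.98), adjusted p = 0.196.

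Late alveolar against early alveolar septa gave calls in both directions. Of 57 members, 5 rose (8.77%) and 8 fell (14.0%), against 3.89% and 7.47% of all tested genes. Those that rose were Mmp3, Mmp28, Timp3, Adamts15 and Adamtsl2, and those that fell were Mmp2, Mmp11, Mmp14, Adam12, Adam19, Adamts7, Adamts12 and Adamts19. The median difference was -0.16 over the members and -0.09 over all genes.

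Mmp14 and Mmp2 form a pair, since MMP14 (MT1-MMP) on the cell surface activates pro-MMP2 (gelatinase A), and both fell. Mmp14 ran from 47.9 to 104 FPKM (median 78.3) in early alveolar septa and from 20.0 to 61.0 (median 25.4) in late ones, where it stood at 61.0 in both P13.5 libraries and at 20.0 to 25.4 in all 5 libraries from P19 on. The difference was -1.19 ± 0.21 (SE), adjusted p = 2.87e-04. Mmp2 went from 42.5 to 73.3 to 21.2 to 71.7 (-0.62 ± 0.20, adjusted p = 0.0413), a call lost without P4a, P5b, P7c, P7d, P10a, P19d, P19f, P23e, P23f or P28c (-0.62 to -0.52, adjusted p 0.0561 to 0.0891). It was also lost with no filter (adjusted p = 0.0527), median ratio scaling (0.0691), only the 2 groups compared (0.0529) or the 3 zero-rich libraries left out (0.118). Mmp11 went from 6.87 to 17.4 to 2.56 to 13.2 (-0.72 ± 0.24, adjusted p = 0.0485), close enough to the threshold that leaving out any of 22 single libraries, all but E16.5-2, P4a, P5b, P7d, P13.5c, P13.5d and P19d, ended the call (-0.76 to -0.59, adjusted p 0.0510 to 0.104). The Mmp11 call was also lost with a pseudocount of 0.1 (adjusted p = 0.0512), no filter (0.0574), median ratio scaling (0.0779) or quantile normalization (0.109). The same held with only the 2 groups compared (0.142) or the 3 zero-rich libraries left out (0.0989). Mmp11 overlaps Chchd10 (median 9.92 FPKM) on the other strand. For Mmp15 the medians were 21.6 and 23.3 FPKM and the difference 0.11 (95% interval -0.34 to 0.57).

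Adam12, a meltrin of mesenchymal cells and muscle precursors, gave the largest fall of the members. It had 11.9 to 44.6 FPKM (median 27.5) in early alveolar septa and 1.12 to 10.7 (median 4.93) in late ones, with no overlap and the lowest values at P23, 1.12 and 1.69 (-2.27 ± 0.30, adjusted p = 7.48e-06). Adam19 fell from 32.6 to 44.1 to 11.4 to 28.9, also without overlap (-0.94 ± 0.14, adjusted p = 2.36e-05), after its rise at birth.

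Adamts7 and Adamts12, close relatives that cut cartilage oligomeric matrix protein, fell together. Adamts7 went from 3.83 to 8.68 FPKM to 0.478 to 3.39 without overlap (-1.60 ± 0.26, adjusted p = 9.44e-05), and it overlaps Tbc1d2b (median 23.4 FPKM) on the other strand. Adamts12 overlapped, at 12.6 to 21.5 and 3.28 to 22.4 (-0.94 ± 0.26, adjusted p = 0.0154), and fitted to these 2 groups alone the call was lost (adjusted p = 0.0657). The Adamts12 values split by age within the late group, at 22.4 and 11.5 at P13.5 and 3.28 and 3.68 at P23. Adamts19 had 0.414 to 8.70 FPKM in early alveolar septa and at most 1.26 in late ones, where both P19 libraries listed it at 0 (-1.72 ± 0.33, adjusted p = 5.99e-04).

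Fibroblast and smooth muscle markers moved in the same comparison. Of 6 tested, 5 fell (Acta2, Col1a1, Col1a2, Myh11 and Tcf21) and 1 rose (Pdgfra), and their sum was 716 to 1153 FPKM in early and 377 to 664 in late alveolar septa, none of the 6 being at 0. Their part in the falls of Mmp2, Mmp14, Adam12, Adam19, Adamts7 and Adamts12 was not tested.

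Alveolar macrophage markers, of which 1 of 9 tested rose (Chil3), summed to 66.8 to 195 FPKM in early and 183 to 1186 in late alveolar septa, none being at 0 throughout a group. The highest sums were 1186 in P15c and 598 in P28c, the libraries with the highest late values of Adam8 and Mmp13 (P15c) and of Mmp3 (P28c). Most of the sum in P15c was the single gene Ctss, at 887 FPKM. The neutrophil marker sums of these libraries were also the highest late ones, 397 FPKM in P15c and 268 in P28c. The other late libraries had 14.3 to 193, and Elane was listed at 0 in all late libraries. The part of either cell type, or of age, in the late values was not tested.

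**Figure D3:**
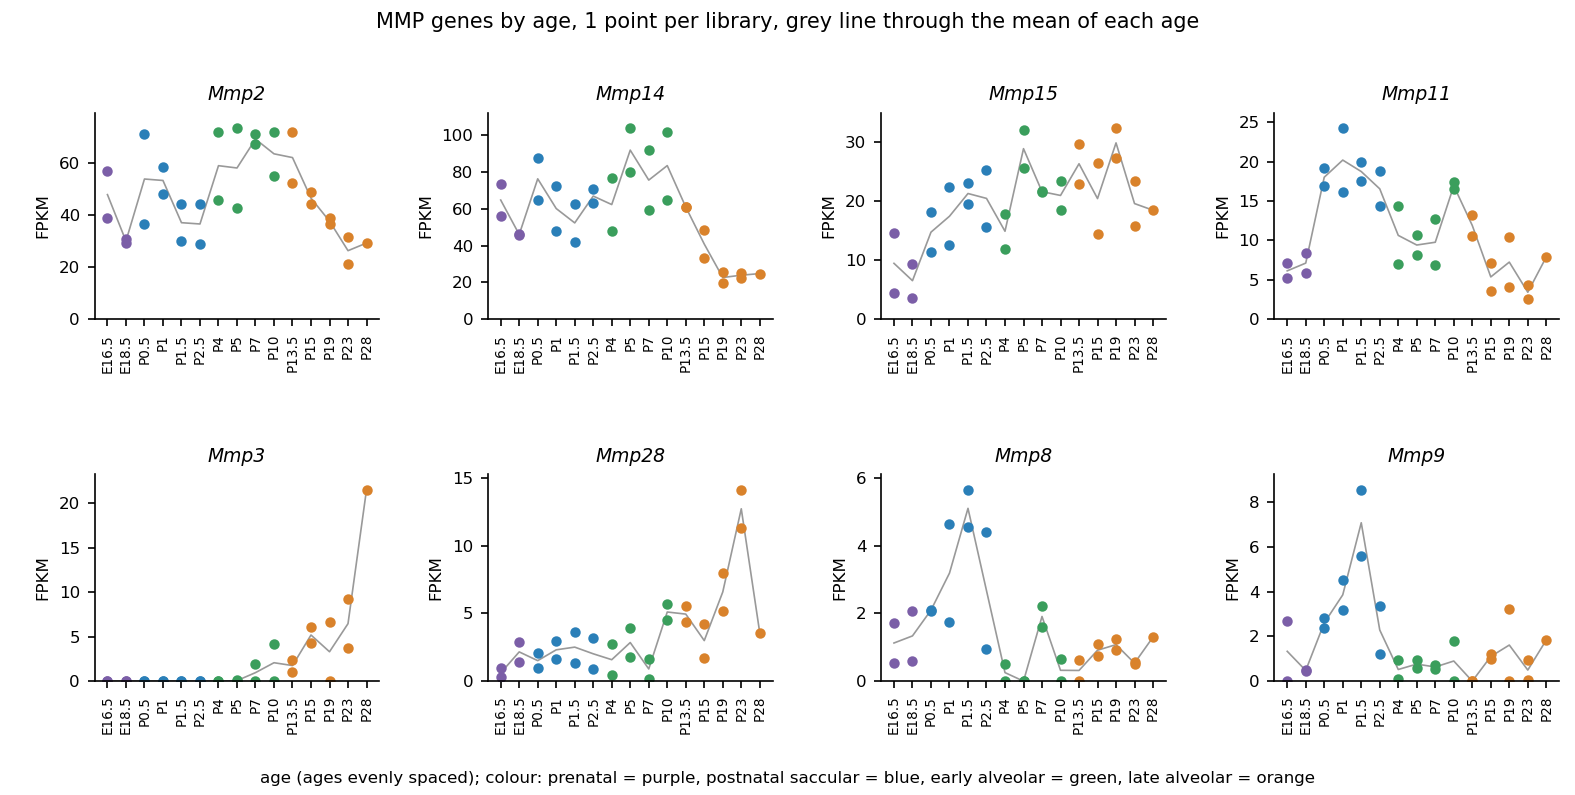
FPKM (y axis, linear, from 0) of 8 MMP genes at the 15 ages (x axis, evenly spaced), 1 point per library, coloured by stage group, with a grey line through the mean of each age. Mmp14 falls to between 20.0 and 25.4 from P19 on, Mmp3 is listed at 0 up to P2.5, and the highest values of Mmp8 and Mmp9 are at P1.5.

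Of the members that rose late, Mmp3 (stromelysin-1), which cuts proteoglycans, basement membrane and other proenzymes, was listed at 0 in all 12 prenatal and saccular libraries and in 5 of the 8 early alveolar ones. The other 3 early alveolar values were 0.117 in P5b, 1.92 in P7c and 4.15 in P10a. The late alveolar values were 2.43 and 1.077 at P13.5, 6.07 and 4.32 at P15, 0 and 6.62 at P19, 3.75 and 9.19 at P23 and 21.5 at P28. Mmp3 was thus detected in 8 of 9 late libraries (1.83 ± 0.41, adjusted p = 0.00332). Mmp13 (collagenase-3) lies in the same cluster, though not next to Mmp3, and has the same pair of promoter motifs. It was listed at 0 in 20 of the 29 libraries and reached 6.54 FPKM in the library P15c. Its late difference of 0.61 (95% interval -0.04 to 1.26) did not pass, adjusted p = 0.239. Mmp28 (epilysin) rose from 0.133 to 5.67 to 1.73 to 14.1 FPKM (1.09 ± 0.35, adjusted p = 0.0416), and without P4a, P4e, P5b, P7c, P7d, P13.5d, P19d, P19f, P23e or P23f it did not pass (0.89 to 1.13, adjusted p 0.0511 to 0.101). Its call was also lost with a pseudocount of 0.1 (adjusted p = 0.0675), no filter (0.0538), only the 2 groups compared (0.0940) or the 3 zero-rich libraries left out (0.0556).

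Timp3 was the member with the highest level in the series. Its values were 151 to 228 FPKM (median 204) in early alveolar septa and 202, 234, 280, 360, 443, 380, 657, 784 and 351 from P13.5 to P28, the 2 highest being those of P23. The difference was 0.94 ± 0.29 (SE), adjusted p = 0.0290. It did not pass without P5b (0.91, adjusted p = 0.0530), P10f (0.89, 0.0511), P23e (0.84, 0.0610) or P23f (0.81, 0.0634), nor without the 3 zero-rich libraries (0.93, 0.0694). A second Timp3 line had a mean of 2.06 against 306 FPKM and a late difference of 0.14, adjusted p = 0.869.

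**Figure D4:**
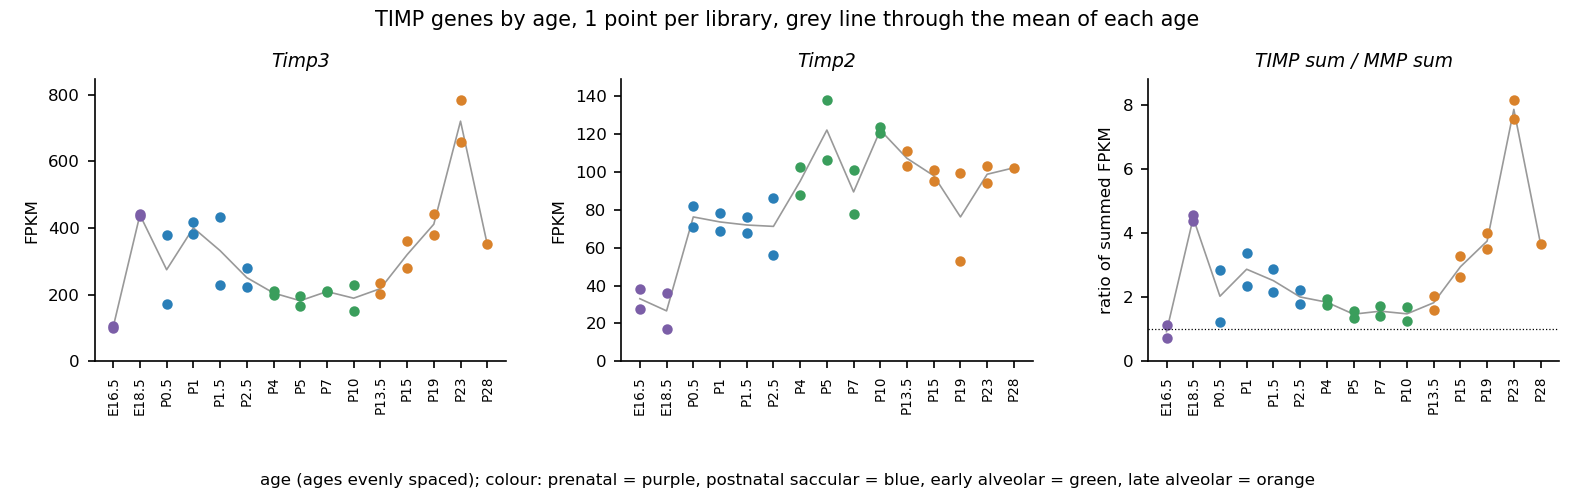
FPKM of Timp3 and Timp2 and the ratio of summed TIMP to summed MMP FPKM (y axes, linear, from 0) at the 15 ages (x axis, evenly spaced), 1 point per library, with a grey line through the mean of each age and a dotted line at a ratio of 1, for the lines of repeated gene IDs with the highest mean. Timp3 and the ratio are high at E18.5 and P23 and low at E16.5 and from P4 to P10.

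Set against each other, the summed FPKM of the 4 TIMP genes was 1.13 and 0.723 times that of the 23 MMP genes at E16.5 and 4.55 and 4.39 times at E18.5. In saccular septa the ratio was 1.22 to 3.38 (median 2.29), and in early alveolar septa 1.25 to 1.94 (median 1.65). Late alveolar septa gave 1.62 to 8.14 (median 3.50), and the highest values were those of both P23 libraries. Without Timp3 the ratio was at most 0.358 before birth and 0.445 to 1.06 in late alveolar septa, against 0.375 to 0.509 in saccular and 0.381 to 0.651 in early alveolar septa. These ratios rest on the kept lines of Timp3 and Timp2. On the lines with the lowest mean the ratio was 0.0159 to 0.114 before birth and 0.0808 to 0.267 in late alveolar septa, below 1 in every library, and which line the authors used is not given in the sources used here. Summed mRNA is not enzyme or inhibitor activity, and no test was made.

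Timp1 and Timp4 were low. Timp1, an inhibitor that many cells induce on injury, was listed at 0 in 11 libraries and was highest at 7.05 FPKM in 1 E16.5 library, and Timp4 at 0 in 6 libraries with at most 4.26. Neither passed in any comparison. Timp1, Timp3 and Timp4 lie inside the synapsin genes Syn1, Syn3 and Syn2 on the other strand, which were at most 4.21, 3.64 and 3.19 FPKM, and since the strand setting of the counting was not given in the sources used here, low values of Timp1 and Timp4 are uncertain.

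Adamtsl2, a microfibril-associated protein linked to TGF-beta availability, had the largest rise of the members. In early alveolar septa 7 of 8 libraries had 2.83 to 8.80 FPKM and P10a 34.1, and in late ones the range was 14.9 to 49.99 (median 33.1). The difference was 2.08 ± 0.39 (SE), adjusted p = 5.33e-04, and no alternative ended the call. Its course was not one-way: it stood at 15.1 and 21.0 at E18.5, and between 3.48 and 21.1 in saccular septa. Adamts15, a proteoglycanase that cuts versican, rose from 5.64 to 17.6 FPKM (median 8.31) to 10.1 to 29.7 (median 16.8) with overlap (0.87 ± 0.22, adjusted p = 0.00983), both P15 libraries being the highest at 28.6 and 29.7.

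**Figure D5:**
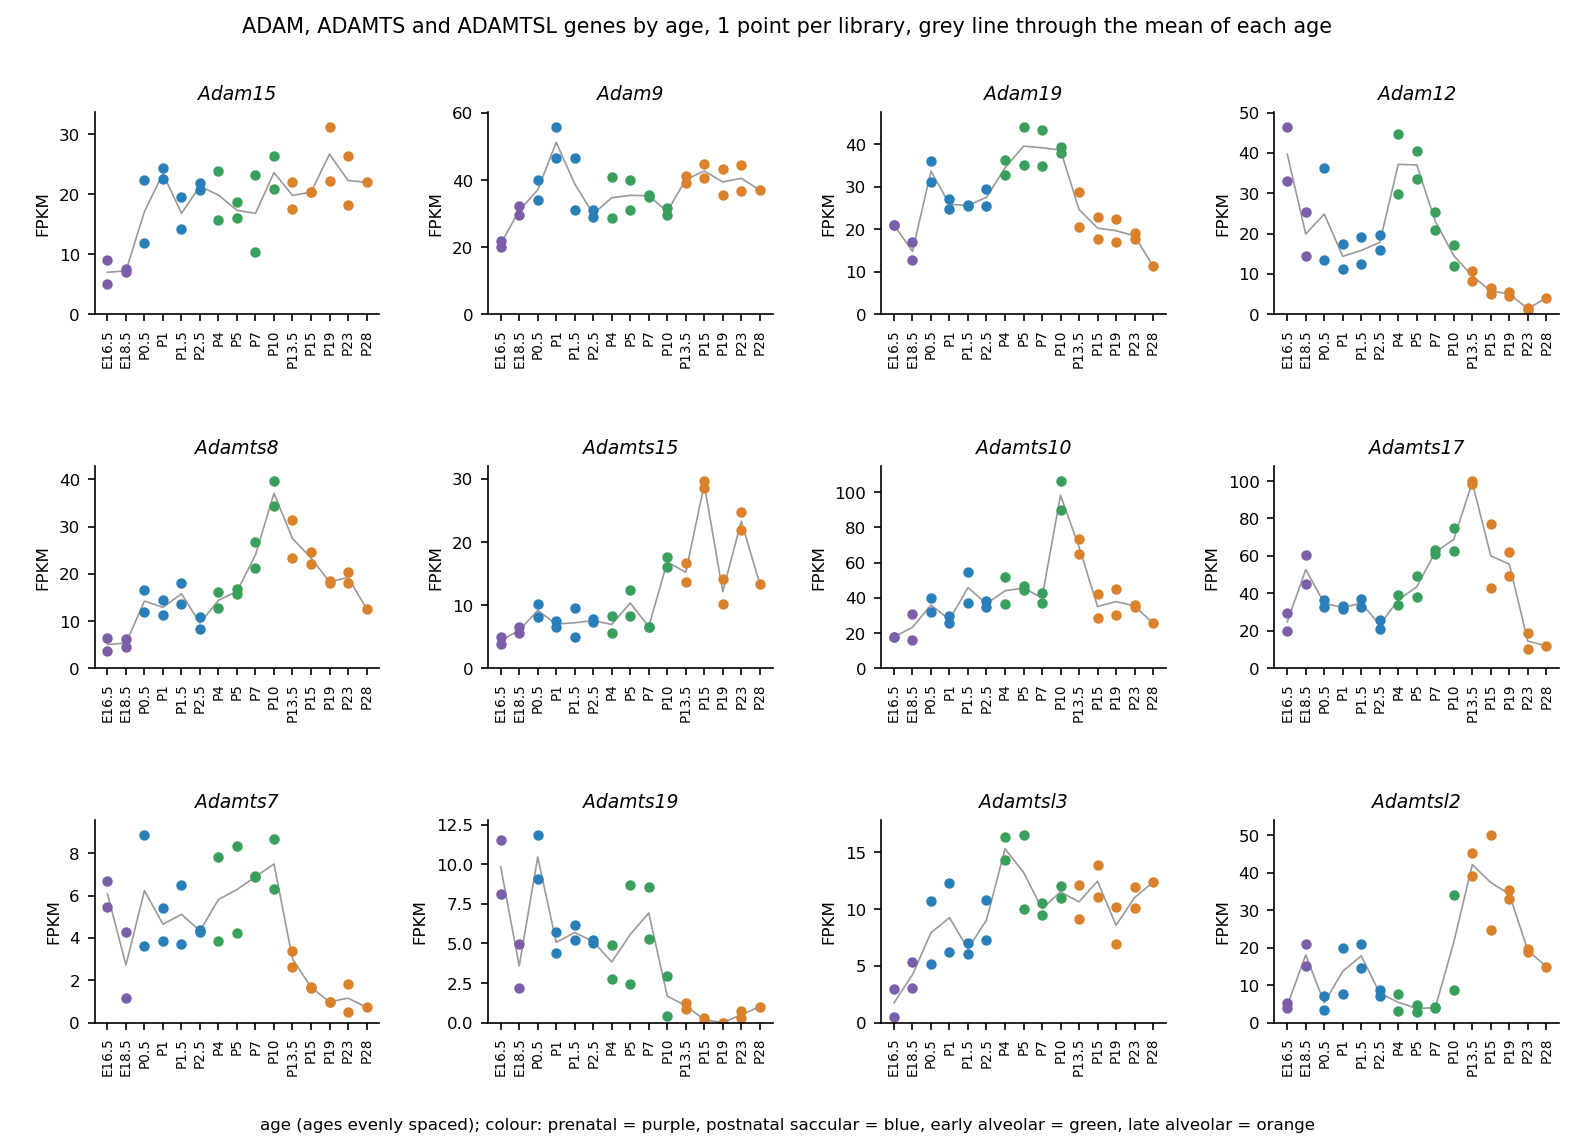
FPKM (y axis, linear, from 0) of 12 ADAM, ADAMTS and ADAMTSL genes at the 15 ages (x axis, evenly spaced), 1 point per library, coloured by stage group, with a grey line through the mean of each age. Adam12 is at 10.7 or less from P13.5 on, Adamts10 is highest at P10, Adamts17 at P13.5, and the highest Adamtsl2 value is at P15.

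Age was also tested as a number, as a curve over log2 days since conception. This test called 32 of 57 members (56.1%), where 30.7% of all tested genes were called, with 8 of 14 MMP, 2 of 4 TIMP, 8 of 17 ADAM, 11 of 17 ADAMTS and 3 of 5 ADAMTSL genes. The smallest adjusted p-values were those of Adamts8 (8.7e-07), Adam12 (2.08e-06), Mmp3 (4.01e-06), Adamtsl3 (5.12e-06) and Adamts19 (6.0e-06). All 7 tested ADAMTS genes outside the proteoglycanase and procollagen groups were called: Adamts6, Adamts7, Adamts10, Adamts12, Adamts17, Adamts18 and Adamts19.

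Some of these courses peaked inside a stage group, where the stage comparisons average them. Adamts17, like Adamts10 a fibrillin-associated member, was at 20.9 to 37.1 FPKM in saccular septa, at 98.6 and 99.9 at P13.5 and at 10.4 to 18.9 from P23 on (age test adjusted p = 1.29e-05), and its late difference was -0.34 (95% interval -1.06 to 0.37). Adamts10 stood at 106 and 90.1 at P10, against 36.3 to 51.8 from P4 to P7 (adjusted p = 1.80e-04). Adamts8 was highest at P10 too, at 39.6 and 34.4. At P10 the library P10a had many values listed at 0, and the other P10 library, P10f, had 90.1 and 34.4 FPKM for Adamts10 and Adamts8.

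Several well-expressed members did not pass in any stage comparison. Adam10 had group medians of 47.3, 40.1, 37.1 and 31.3 FPKM from prenatal to late alveolar septa and was called in the age test (adjusted p = 0.0331), with its single lowest value, 13.8, in P10a. Adam17 had medians of 32.5, 24.0, 26.1 and 25.9 (age test adjusted p = 0.507). Adamts1 stood at medians of 77.1, 72.2, 108 and 84.5 and was called with age (adjusted p = 0.00510), while Adamts9, another proteoglycanase, at 36.3, 27.3, 32.0 and 30.7 was not (adjusted p = 0.465). Adamts6 held medians of 96.2, 92.3, 86.0 and 79.5, on the line of its gene ID with the higher mean, 87.2 against 6.58 FPKM.

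Among the lower members, Adamts5 (aggrecanase-2) had medians of 5.82, 3.90, 8.85 and 6.10 FPKM, Mmp19 5.37, 5.09, 5.19 and 6.11, and Mmp23 5.31, 5.00, 5.67 and 4.20. Adam22 and Adam23, which have no protease activity and bind LGI proteins at synapses, had 5.52, 3.31, 3.74 and 3.29, and 2.02, 5.18, 7.15 and 6.73. Adam23 missed the threshold at birth (0.95 ± 0.34, adjusted p = 0.0548) and passed in 7 other fits and on leaving out any of 5 single libraries. Adam1a and Adam1b, related neighbouring genes, reached 16.7 and 11.6, and Adam4 19.8 FPKM. Adam4 shares its strand with Cox16 (5.01 to 34.3 FPKM) and Adam1a with Mapkapk5 (10.7 to 32.6 FPKM), so reads could not be assigned with certainty and both values are uncertain. Adam1b overlaps Tmem116 on the other strand.

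By the stage of the highest mean, 17 tested members were highest in the prenatal group (29.8%, against 38.6% of all tested genes), 10 in the saccular (17.5% against 19.6%), 16 in the early alveolar (28.1% against 18.7%) and 14 in the late alveolar group (24.6% against 23.1%). The 16 included 8 ADAMTS genes (Adamts1, Adamts2, Adamts5, Adamts7, Adamts8, Adamts10, Adamts12 and Adamts17), together with Mmp2, Mmp14, Mmp17, Timp2, Adam5, Adam19, Adam33 and Adamtsl3. These counts are a description without a test.

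Partners of these enzymes were counted from a list of 24 genes, 23 of them tested: activators such as furin and the plasminogen activators, inhibitors and clearance receptors, and proteins that traffic or dock them. The alternative fits, E18.5 alone as the prenatal group among them, were evaluated only for members. Whether the partner calls hold under them is therefore not known. At birth 7 of the 23 rose and 1 fell, where 9.11% of all tested genes rose and 6.81% fell. Those that rose were Furin, Pcsk5 and Plat, which activate proenzymes directly or through plasmin, and Plaur, the receptor of Plau. Also higher were Rhbdf1 and Tspan17, which carry ADAM17 and ADAM10 to the surface, and Cd44, a hyaluronan receptor that docks MMP9. The other tested activators, Plau (-0.85, limma adjusted p = 0.166), Pcsk6 (-0.92, 0.0844) and Klkb1 (0.43, 0.510), did not pass. Rhbdf1 had the smallest adjusted p, with means of 11.6 ± 3.70 (SD, n = 4) and 33.2 ± 10.3 FPKM (SD, n = 8) and a difference of 1.45 ± 0.27 (SE), adjusted p = 3.49e-04. A2m, which traps proteinases in plasma, fell by 1.63 (adjusted p = 0.0118). In early alveolar septa 1 of the 23 rose and 1 fell, against 0.527% and 0.937% of all tested genes. Serpine2, an inhibitor of thrombin and plasminogen activators, rose (0.79 ± 0.20, adjusted p = 0.0395) and Tspan15, which carries ADAM10, fell (-0.83 ± 0.20, adjusted p = 0.0302). In late alveolar septa 1 of the 23 rose and 1 fell, against 3.89% and 7.47% of all tested genes. Serpine2 fell there (-1.05 ± 0.20, adjusted p = 4.84e-04) and Lrp1, which clears proteinases and their complexes from the matrix, rose (0.37 ± 0.12, adjusted p = 0.0478).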

How the data were processed

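RNA from laser-captured alveolar septa of 29 mice was sequenced from ribosome-depleted, stranded total RNA libraries. The authors deposited 1 table of FPKM values, and their processing notes name STAR 2.5.1, Cufflinks 2.2.1 and the mouse build mm10 (GRCm38). The annotation, strand setting and any filter were not given in the sources used here, nor was a test. The table held 24486 lines for 22779 gene IDs and 0 columns without a sample. Of the 1226 gene IDs on more than 1 line, including 6 members, the line with the highest mean was kept. Symbols came from a RefSeq table, which matched 22718 IDs.

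Libraries were grouped by the ages in the labels. limma 3.58.1 (R 4.3.3) was fitted with a mean-variance trend to log2(FPKM + 1) of the 14616 genes that reached an FPKM of 1 in 4 or more libraries, 1 fit for 4 stage groups, with two-sided tests of adjacent groups. Age was tested with an F test of a natural cubic spline (3 degrees of freedom) over log2 of the days since conception, birth taken as day 19. P-values were adjusted by Benjamini-Hochberg over all genes. The code was tested on simulated data. Named are members called in a stage comparison, those with a group mean FPKM of at least 5, the TIMP genes and a few fixed members. Other members named were chosen after their values were seen. Members and lists were chosen with earlier results of these data known. Alternatives were another pseudocount, filters, scalings, weights, groupings, and leaving out libraries. Overlapping genes were taken from GENCODE M21. Protein sequences were not used here.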

Additional observations from a re-analysis of the deposited data

Results flagged for a closer look

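In 162 groups of 4 to 9 libraries of a named member, 11 held a library whose distance from the nearest other library took up more of the group's range than Dixon's 95% limit allows. For normally distributed values, chance gives this in about 1 of 20 groups. FPKM values are bounded at 0, so the rate may differ here. All values are FPKM. Before birth, Adamts10 stood at 30.8 in E18.5-3 (next 18.0), Adamts6 at 146.7 in E18.5-4 (next 97.0) and Timp1 at 7.05 in E16.5-2 (next 1.06). In saccular septa, Adam12 stood at 36.3 in P0.5f (next 19.6) and Adamts1 at 126.6 in P0.5e (next 82.6). In early alveolar septa, the library P10a stood apart for Adamtsl2 at 34.1 (next 8.80) and for Mmp3 at 4.15 (next 1.92), and P5b for Timp4 at 2.95 (next 1.20). In late alveolar septa, Adam8 stood at 7.92 in P15c (next 3.05), Mmp3 at 21.5 in P28c (next 9.19), and Timp2 was lowest in P19d at 52.9 (next 94.3). P10a and P19d are among the 3 libraries with many genes listed at 0. Whether that bears on these values was not tested.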

How the results depend on the processing

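Of 28 called differences of members, 13 kept their call under every alternative in which they were tested (Mmp8 was not tested with the filter at an FPKM of 5). A further 14 lost it under at least 1 alternative other than leaving out a library, and 1 only on leaving out a library. Members called higher at birth numbered 5 when the prenatal group was E18.5 only and 8 to 14 on leaving out single libraries, and members called lower 1 with no filter, 1 with only the 2 groups compared and 0 to 1 on leaving out libraries. In early alveolar septa, members called higher numbered 4 with array weights, 6 in the fit of 15 ages, 3 with only the 2 groups compared and 0 to 1 on leaving out libraries, and members called lower 1 with a pseudocount of 0.1, 0 with a filter at an FPKM of 5 (which Mmp8 and Mmp9 do not pass) 3 with array weights and in the fit of 15 ages, and 1 to 2 on leaving out libraries. In late alveolar septa, members called higher numbered 3 without the 3 zero-rich libraries and 3 to 5 on leaving out single ones, and members called lower 5 with only the 2 groups compared, 11 in the fit of 15 ages (with Adamts4, Adamts10 and Adamts17) and 6 to 9 on leaving out libraries. Members called with age numbered 27 to 34 on leaving out libraries. The cause of these changes was not tested. The 1 reversal was Adamtsl3 at birth, at -0.37 with the line of the lowest mean for repeated gene IDs, an alternative chosen after seeing the data. No paired analysis was possible because the groups hold different animals of different ages, and no litter or batch is tied to the letters that name them. The depth of the libraries is unknown, and 2 animals an age limit what can be said of single ages.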
